A study of Homo sapiens with 30 samples.

Results

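The regions described here are the H3K4me3 and H3K27ac peaks within 2 Mb of the ends of chromosomes 1 to 22. A peak was taken where its end lay at or below position 2000000 of a chromosome, or where its start lay within 2 Mb below the last peak of that chromosome in either mark. The p ends of chromosomes 13, 14, 15, 21 and 22 were left out, so 39 ends and 78 Mb were covered. The rule used position alone, and it gave 1537 of 21268 H3K4me3 peaks (7.23%) and 2951 of 63580 H3K27ac peaks (4.64%). The q end was measured from the last peak and not from the telomere. The last annotated gene lay a median of 42.7 kb beyond that peak, and 821.9 kb beyond it on chromosome 11, where the region therefore lies further inward.

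The study treated OCI-Ly1 cells, an established human diffuse large B-cell lymphoma line, with JIB-04 and profiled histone marks by chromatin immunoprecipitation and sequencing (ChIP-seq). JIB-04 is a small-molecule inhibitor of Jumonji histone demethylases. For each mark, 2 libraries came from cells given the vehicle dimethyl sulfoxide (DMSO, 0.01%), 2 from cells given 150 nM JIB-04 and 2 from cells given 500 nM JIB-04. All groups are of this 1 cell line, and no source used here says that the 2 libraries of a group came from separate cultures, so p-values measure only the spread between these samples, which may be technical.

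The outer megabases of human chromosomes are rich in genes and in G and C, and their outermost stretches hold repeated segments shared between chromosomes. Trimethylation of histone H3 at lysine 4 (H3K4me3) marks promoters, and enzymes of the KDM5 family, which are Jumonji demethylases, remove it. Acetylation at lysine 27 (H3K27ac) marks active promoters and enhancers. A count in a peak reports how much of the marked chromatin came from there, and reads from repeated segments can be split between copies.

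Total counts in peaks ran from 9686420 to 12327122 for the 6 H3K4me3 libraries and from 4360660 to 5410292 for the 6 H3K27ac libraries. Levels are given as CPM, counts scaled to 1000000 reads in the tested peaks of the mark after TMM adjustment of the library sizes. The B-cell label was checked on H3K4me3 at marker genes in DMSO. The B-cell markers MS4A1, CD79A, CD79B, PAX5, BCL6 and CD22 each had a peak, from 112 CPM at CD22 to 481 CPM at PAX5. Of the other markers, 2 of 5 of T cells reached up to 33.0 CPM, 1 of 4 of myeloid cells 10.7 CPM and 2 of 3 of epithelial cells 70.4 CPM, while CD3E, CD4, BCL11B, LYZ, CSF1R, ITGAM and CDH1 had none. For MS4A1, CD79B, CD3E, CD4, LYZ, EPCAM, CDH1 and KRT18 no start was listed, so these were not read at a listed gene start. Over the end peaks, libraries of a group differed by a chi-square per degree of freedom of 0.993 to 1.20 in H3K4me3 and 1.12 to 1.56 in H3K27ac. The H3K4me3 libraries at DMSO and 150 nM agree within sampling noise also across groups, at 0.936 to 1.14, so no pair stood out as 1 library deposited more than once, and each was kept as a sample. The H3K27ac libraries fell into 2 kinds, which are not balanced over the doses. Summed counts in 5 peaks on unplaced contigs, known from earlier work on these data, were 363 in DMSO replicate 2 and 246 in 150 nM replicate 2, against 1674 to 2173 in the other 4. Both 500 nM libraries are among these 4, so the kind of library and the 500 nM dose cannot be fully told apart.

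Promoters near the ends are richer in G and C than promoters elsewhere. Each promoter window ran from 250 bases before to 50 bases after a RefSeq start in GRCh38.p14. The 2078 windows of the end regions had a mean GC content of 65.1% and a median of 22 CG dinucleotides, against 57.1% and 13 in the 31647 windows elsewhere on chromosomes 1 to 22. The letters GGGCGG, searched on both strands, occurred in 59.0% of the end windows and in 45% of all windows. The telomere repeat unit TTAGGG, also searched on both strands, occurred in 6.21% of the end windows and 9.11% of all windows. The 6 promoters below come from those of the 20 H3K4me3 peaks named further on that cover exactly 1 listed window of the gene shown. The RASA3 peak also covers a start of LOC107987192, whose window is not shown. Of the 6 promoters, 3 are from peaks that rose at 500 nM and 3 from peaks that fell. They are written 5′ to 3′ on the strand of the gene, from RefSeq, with GGGCGG or its reverse complement CCGCCC in capitals. ADM2, NXN and RASA3 lay under peaks that rose, at chr22:50481293-50481592 (+ strand), chr17:864062-864361 (− strand) and chr13:114132574-114132873 (− strand).
ADM2: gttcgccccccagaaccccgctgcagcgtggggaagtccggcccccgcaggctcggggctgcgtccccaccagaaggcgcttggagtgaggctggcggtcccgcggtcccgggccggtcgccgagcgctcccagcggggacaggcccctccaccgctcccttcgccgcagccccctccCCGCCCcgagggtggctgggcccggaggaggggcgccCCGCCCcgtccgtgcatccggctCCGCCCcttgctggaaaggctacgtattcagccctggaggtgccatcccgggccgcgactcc
NXN: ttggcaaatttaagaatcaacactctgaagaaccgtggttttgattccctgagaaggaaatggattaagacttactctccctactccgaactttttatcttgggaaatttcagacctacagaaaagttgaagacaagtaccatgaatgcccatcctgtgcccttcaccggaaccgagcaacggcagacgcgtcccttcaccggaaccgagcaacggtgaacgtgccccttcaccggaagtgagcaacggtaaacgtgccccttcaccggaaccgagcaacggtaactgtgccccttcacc
RASA3: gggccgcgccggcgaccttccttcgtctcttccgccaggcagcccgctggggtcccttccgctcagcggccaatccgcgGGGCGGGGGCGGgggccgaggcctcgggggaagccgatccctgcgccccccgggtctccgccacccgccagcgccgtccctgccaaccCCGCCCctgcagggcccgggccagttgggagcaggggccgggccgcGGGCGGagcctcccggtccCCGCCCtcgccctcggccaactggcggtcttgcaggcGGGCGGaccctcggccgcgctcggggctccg
CHLSN, MIR210HG and BNIP3 lay under peaks that fell, at chr7:1028320-1028619, chr11:568408-568707 and chr10:131981874-131982173, all on the − strand.
CHLSN: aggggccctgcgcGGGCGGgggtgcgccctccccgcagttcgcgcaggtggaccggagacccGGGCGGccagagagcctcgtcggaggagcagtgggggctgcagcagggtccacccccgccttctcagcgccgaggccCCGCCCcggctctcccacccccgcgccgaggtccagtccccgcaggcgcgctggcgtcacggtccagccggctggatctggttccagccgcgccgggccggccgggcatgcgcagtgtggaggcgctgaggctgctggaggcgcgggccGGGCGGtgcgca
MIR210HG: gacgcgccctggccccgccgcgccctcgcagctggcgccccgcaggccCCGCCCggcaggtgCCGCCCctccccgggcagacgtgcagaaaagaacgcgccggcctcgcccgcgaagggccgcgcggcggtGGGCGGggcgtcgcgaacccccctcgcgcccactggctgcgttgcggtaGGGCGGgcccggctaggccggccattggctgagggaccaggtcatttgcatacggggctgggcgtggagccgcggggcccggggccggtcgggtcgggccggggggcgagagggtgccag
BNIP3: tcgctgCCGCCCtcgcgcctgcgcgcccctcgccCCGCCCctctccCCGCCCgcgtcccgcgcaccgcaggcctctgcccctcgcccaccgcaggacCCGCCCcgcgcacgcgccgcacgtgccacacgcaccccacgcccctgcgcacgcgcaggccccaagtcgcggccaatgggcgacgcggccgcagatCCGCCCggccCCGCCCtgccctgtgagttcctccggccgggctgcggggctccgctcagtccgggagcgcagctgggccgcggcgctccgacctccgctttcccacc

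The ADM2 window held 3 GGGCGG matches, the NXN window 0 and the RASA3 window 6. The CHLSN and MIR210HG windows held 4 each and the BNIP3 window 6. Their GC content was 76.7% at ADM2, 50.3% at NXN, 80.7% at RASA3, 78.7% at CHLSN, 80.0% at MIR210HG and 80.7% at BNIP3. The windows of named peaks that cover several windows of their gene (MCF2L, ZMYND11, CLBA1 and SLC16A3) ran from 48.7% to 83.7%. No TTAGGG was found in the 6 windows.

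Peaks of the deposited consensus sets were denser near the ends than elsewhere. There were 19.7 H3K4me3 peaks per Mb against 6.77, and 37.8 H3K27ac peaks per Mb against 21. Protein-coding genes were also denser, at 18.2 per Mb against 6.34. In the DMSO libraries the median tested H3K4me3 peak was weaker near the ends, at 14.2 CPM per kb against 17.7, and the median H3K27ac peak was stronger, at 11.2 against 9.97. Of the H3K27ac end peaks, 47.4% overlapped an H3K4me3 peak, against 30.2% elsewhere. Within 1000 bp of the start or the end of a gene lay 40.5% of the H3K27ac end peaks, against 25.9%. The corresponding shares of H3K4me3 peaks were 75.0% against 78.0% and 62.1% against 62.4%. Single ends held 3 to 95 H3K4me3 peaks (median 38) and 2 to 172 H3K27ac peaks (median 74).

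The strongest H3K4me3 end peaks lay over the starts of ACTG1, a cytoskeletal actin, NFATC1, a transcription factor of lymphocyte activation, and WNK1, a kinase of ion transport. ACTG1 had 358 and 362 CPM in DMSO, 363 and 364 CPM at 150 nM, and 323 and 329 CPM at 500 nM. NFATC1 had 355 and 337 CPM in DMSO, 353 and 341 CPM at 150 nM, and 271 and 269 CPM at 500 nM. Both were lower at 500 nM in both libraries, by 0.14 and 0.36 on the log2 scale (edgeR, adjusted p = 3.07e-05 and 2.07e-15). WNK1 had 293 and 298 CPM in DMSO, 301 and 302 CPM at 150 nM, and 271 and 282 CPM at 500 nM (log2 difference -0.10, edgeR, adjusted p = 0.00556). With loess offsets on abundance the differences were -0.05 at ACTG1 and -0.01 at WNK1, and neither passed the test (edgeR, adjusted p = 0.0882 and 0.864). WNK1 was called under 9 of 14 alternative settings. The strongest H3K27ac end peaks were over LOC102723506 inside NFATC1, in the immunoglobulin heavy chain region near LOC105370698, and near DUSP22. None of these 3 passed the test at 500 nM, with log2 differences of 0.11, 0.09 and -0.02.

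At 500 nM JIB-04, H3K4me3 changed at many end peaks, in both directions. Of 1486 end peaks that passed the filter on low counts (51 did not), 617 were called at an adjusted p under 0.05 by edgeR's quasi-likelihood test. That is 41.5%, beside 39.4% of all 20402 tested peaks. The 329 higher peaks made up 22.1% (20.7% of all tested, 21.3% of other peaks at matched DMSO level). The 288 lower peaks made up 19.4% (18.7% of all tested, 18.9% of matched other peaks). The shares near the ends are thus close to the background. DESeq2, run on all peaks with its own normalization and filter, called 261 of the end peaks. A log2 difference of at least 1 was reached by 117 higher peaks (7.87%, beside 7.65% of all tested) and 36 lower peaks (2.42%, beside 1.98%) among those called.

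Among end peaks outside any annotated gene, 72 of 186 were higher (38.7%) and 19 lower (10.2%), against 25.5% and 11.7% of such peaks elsewhere. This difference between the ends and elsewhere was not tested. Peaks of chromosome 8 were left out of these shares, which are not matched on DMSO level.

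The level of H3K4me3 end peaks relative to other peaks at matched DMSO level did not separate the doses. In DMSO the end peaks stood at -0.0137 and 0.0158 relative to the matched peaks on the log2 scale. The 150 nM libraries gave 0.0111 and -0.000724, the 500 nM libraries -0.0202 and 0.00189, and the 3 groups overlapped. The end-minus-other difference for 500 nM against DMSO was -0.0127, with a replicate SD of 0.0184 (n = 2 per group). This value for each library is the median, over end peaks, of the log2 CPM relative to the peak's own mean, minus the same for the other peaks, weighted to the same mix of DMSO levels in 10 bins.

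**Figure D1:**
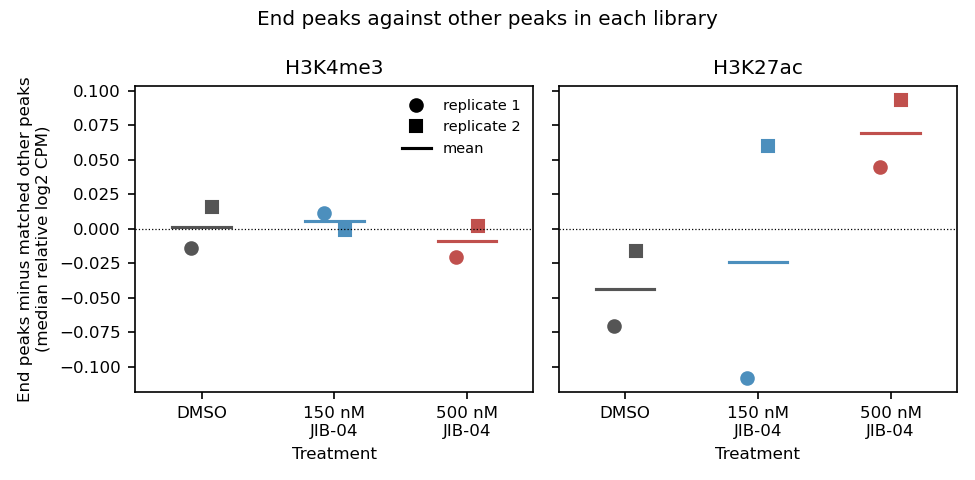
Each point is 1 library, with the level of end peaks minus that of other peaks at matched DMSO level on the y axis (median relative log2 CPM) and the treatment on the x axis; bars are means of 2 libraries. The H3K4me3 groups overlap around 0, while both H3K27ac libraries at 500 nM (0.0447 and 0.0932) lie above both DMSO libraries (-0.0703 and -0.0165), with the 150 nM libraries at -0.108 and 0.0595.

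H3K27ac end peaks were higher at 500 nM than in DMSO relative to other peaks, by a small amount. The DMSO libraries stood at -0.0703 and -0.0165, and the 500 nM libraries at 0.0447 and 0.0932, so these groups did not overlap. The 150 nM libraries stood at -0.108 and 0.0595, and the second of them lies above 1 of the 500 nM libraries. The end-minus-other difference was 0.103 for 500 nM against DMSO, with a replicate SD of 0.0362 (n = 2 per group). It was 0.0213 for 150 nM against DMSO (SD 0.0880) and 0.0785 for 500 nM against 150 nM (SD 0.0873), both smaller than the spread between replicates. An exact permutation test of 2 libraries against 2 could not go below a two-sided p of 0.333, so no p is given. The kind of library was not a term in these differences, and both 500 nM libraries are of the same kind.

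In every H3K27ac group, replicate 2 stood above replicate 1. The tilt of H3K27ac with promoter GC followed the same order. Among peaks elsewhere over gene starts, the class richest in GC of 5 equal classes differed from the poorest by -0.0287 in DMSO replicate 1 and 0.0268 in replicate 2. The corresponding values were -0.0790 and 0.0760 for the 150 nM libraries, and -0.0496 and 0.0321 for those of 500 nM. The promoters under end peaks had a median GC of 70.0%, against 63.3% elsewhere. Over gene starts alone, the end-minus-other difference at 500 nM was 0.0625, and with promoter GC matched as well it was 0.0647. Both values hold few or no peaks of chromosome 8. The part of GC beyond gene starts was not tested. Restricted to peaks averaging 50 or more counts, the end-minus-other difference was 0.0576. Leaving out 1 library at a time gave 0.0807 to 0.132.

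The H3K27ac difference was positive in all bins within 2 Mb and smallest in the outermost bin, a contrast that was not tested. In the outermost 0.1 Mb (102 tested peaks) the difference between 500 nM and DMSO was 0.0292 above matched other peaks. It was 0.103 from 0.1 to 0.5 Mb, 0.0523 from 0.5 to 1 Mb, 0.122 from 1 to 1.5 Mb and 0.109 from 1.5 to 2 Mb. Beyond the end regions it was 0.0355 from 2 to 5 Mb, 0.0213 from 5 to 10 Mb, 0.00711 from 10 to 20 Mb and -0.00709 further in. The libraries of DMSO and 500 nM overlapped in the outermost bin and from 0.5 to 1 Mb. From 0.5 to 1 Mb, DMSO stood at -0.0411 and 0.0157 and 500 nM at 0.0105 and 0.0398. The H3K4me3 values lay between -0.0237 and 0.0181 in all 9 distance bins.

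**Figure D2:**
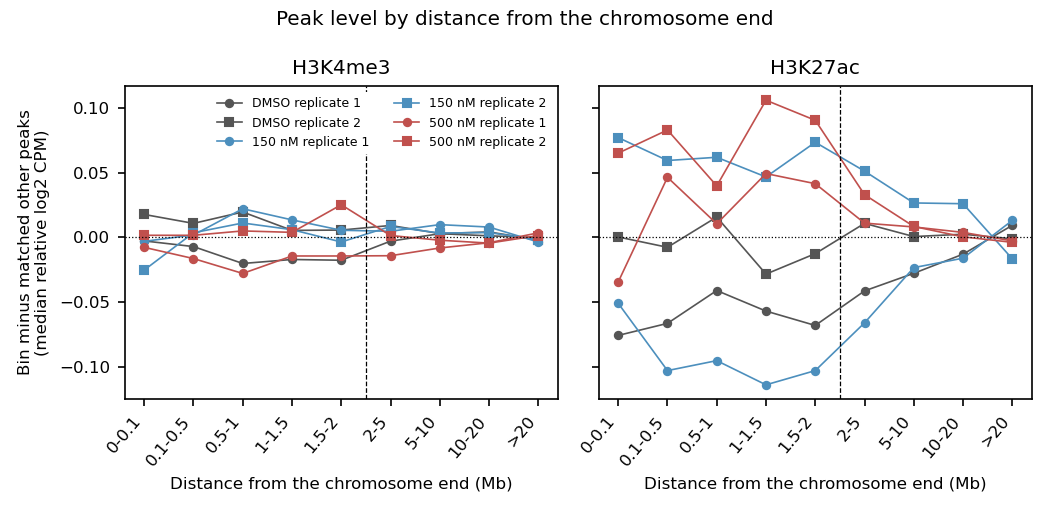
Level of peaks in each distance bin (x axis, Mb from the chromosome end) minus that of matched other peaks (y axis, median relative log2 CPM), 1 line per library; the dashed line marks the 2 Mb limit of the end regions. The H3K4me3 lines stay near 0, and the H3K27ac lines spread apart within 2 Mb, with 500 nM replicate 2 up to 0.106 and 150 nM replicate 1 down to -0.114.

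Few single H3K27ac end peaks passed the test. At 500 nM against DMSO, 31 of 2708 tested end peaks (1.14%; 243 further peaks did not pass the filter on low counts) were called, beside 0.923% of all 54037 tested peaks. Of these 21 were higher (0.775%, beside 0.692% of all tested) and 10 lower (0.369%, beside 0.231%). The median log2 difference of the tested end peaks was 0.0864, against -0.00399 for all tested peaks. DESeq2 called 5 of the end peaks, and with a term for the 2 kinds of H3K27ac library 96 were called, 28 of them shared with the 31. Counts without single libraries ran from 4, without DMSO replicate 2 or without 500 nM replicate 2, to 132, without 150 nM replicate 1.

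At 150 nM no end peak of either mark passed the test against DMSO. The background was 0.0% for H3K4me3 and 0.00185% for H3K27ac in all tested peaks. At an unadjusted p under 0.05, edgeR gave 76 H3K4me3 end peaks (5.11%, beside 4.66% of all tested) and 99 H3K27ac end peaks (3.66%, beside 3.94%). DESeq2 also called 0 in both marks. Without 150 nM replicate 1, 18 H3K27ac end peaks were called.

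At 500 nM against 150 nM, 623 of 1486 H3K4me3 end peaks were called (41.9%, beside 39.2% of all tested), 310 higher (20.9%, beside 20.5% of all tested) and 313 lower. The lower share was 21.1%, against 18.8% of matched other peaks and 18.6% of all tested. For H3K27ac, 38 of 2708 were called (1.40%, beside 1.27% of all tested), 31 higher (1.14%, beside 1.09% of all tested) and 7 lower (0.258%, beside 0.185%). DESeq2 gave 269 and 7. Both comparisons of 500 nM use the same 500 nM libraries.

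Among the H3K4me3 peaks that rose at 500 nM, the peak over the start of ADM2, a secreted peptide of the adrenomedullin family, rose most among those above the median abundance. It had 38.6 and 39.2 CPM in DMSO, 34.8 and 36.7 CPM at 150 nM, and 78.8 and 82.6 CPM at 500 nM. Both 500 nM libraries stood far above the other 4. The log2 difference was 1.05 ± 0.06 (SE; edgeR, adjusted p = 1.08e-23). The overlapping H3K27ac peak had a log2 difference of 0.45 against DMSO, which did not pass the test (adjusted p = 0.387), and rose by 1.09 against 150 nM (adjusted p = 0.00223).

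The next rise lay in the immunoglobulin heavy chain locus, over IGHM, the constant gene of IgM. Its peak had 41.7 and 40.6 CPM in DMSO, 39.2 and 42.1 CPM at 150 nM, and 64.5 and 67.5 CPM at 500 nM. The log2 difference was 0.68 ± 0.06 (SE; edgeR, adjusted p = 4.71e-15), and DMSO and 500 nM did not overlap, as the rule for naming peaks required. A second peak of the same locus, over IGHE, the constant gene of IgE, moved the other way. It had 60.8 and 57.0 CPM in DMSO, 61.8 and 61.4 CPM at 150 nM, and 38.4 and 36.8 CPM at 500 nM (log2 difference -0.65, edgeR, adjusted p = 1.23e-13).

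PYCR1, an enzyme of proline synthesis, had a peak of 33.3 and 35.9 CPM in DMSO, 34.8 and 31.5 CPM at 150 nM, and 53.0 and 52.9 CPM at 500 nM. The start of ZMYND11, a reader of methylated histone H3.3, had 36.8 and 44.9 CPM in DMSO, 40.8 and 39.0 CPM at 150 nM, and 55.7 and 60.9 CPM at 500 nM. At the start of RASA3, a GTPase-activating protein of Ras, the values were 63.1 and 70.3 CPM in DMSO, 70.4 and 65.5 CPM at 150 nM, and 87.1 and 96.8 CPM at 500 nM. In each of these the 500 nM libraries lay above all others. The log2 differences were 0.62 at PYCR1, 0.52 at ZMYND11 and 0.46 at RASA3 (edgeR, adjusted p = 5.20e-12, 1.66e-09 and 5.61e-11). The remaining named rises were NXN, a thioredoxin-like oxidoreductase (0.66), LOC107984507 (0.63), MCF2L (0.58), CLBA1 (0.46) and B4GALNT3, a glycosyltransferase (0.45).

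Among H3K4me3 peaks above the median abundance over all libraries, the largest fall lay over a start of CHLSN on the short arm of chromosome 7. The peak had 185 and 182 CPM in DMSO, 212 and 190 CPM at 150 nM, and 72.3 and 66.8 CPM at 500 nM. The 500 nM libraries stood far below the other 4, with a log2 difference of -1.39 ± 0.05 (SE; edgeR, adjusted p = 1.62e-33). MIR210HG, the host gene of the hypoxia-induced microRNA miR-210, had 148 and 154 CPM in DMSO, 164 and 158 CPM at 150 nM, and 70.1 and 61.1 CPM at 500 nM. Its log2 difference was -1.19 ± 0.05 (SE; edgeR, adjusted p = 3.47e-30).

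SLC16A3, which encodes a lactate exporter, had 112 and 110 CPM in DMSO, 122 and 102 CPM at 150 nM, and 48.0 and 49.0 CPM at 500 nM. At BNIP3, a mitochondrial protein that acts in mitophagy, the values were 136 and 138 CPM in DMSO, 138 and 135 CPM at 150 nM, and 86.5 and 89.2 CPM at 500 nM. Both peaks were lower at 500 nM in both libraries, by -1.20 and -0.64 on the log2 scale (edgeR, adjusted p = 1.08e-25 and 3.61e-20). SLC16A3, BNIP3 and MIR210HG are known targets of the hypoxia response. The H3K27ac peaks overlapping them had log2 differences of 0.05 at SLC16A3, -0.63 at BNIP3 and -0.46 at MIR210HG, none of which passed the test.

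LSP1, an actin-binding protein of lymphocytes, had 127 and 120 CPM in DMSO, 131 and 122 CPM at 150 nM, and 67.3 and 68.9 CPM at 500 nM (log2 difference -0.86, edgeR, adjusted p = 1.63e-23). A peak inside NFATC1 fell by 1.11 on the log2 scale, more than the peak at its start (0.36). The remaining named falls were a peak near LOC124902607 (-1.35), a peak outside genes near TCF3 (-0.96), and a peak inside AHRR, the repressor of the aryl hydrocarbon receptor (-0.74). All 20 named H3K4me3 peaks were called under every alternative setting that was run, and the largest adjusted p without any 1 library was 0.000149.

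**Figure D3:**
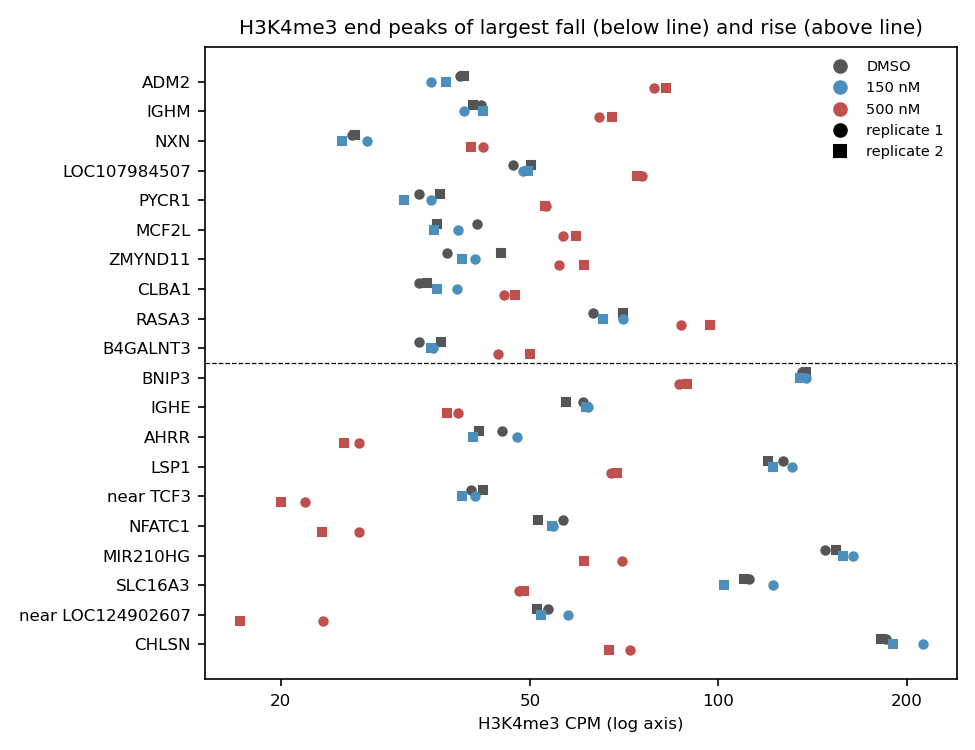
H3K4me3 level (CPM, log axis) of the 10 end peaks of largest rise and the 10 of largest fall at 500 nM, 1 point per library. Only peaks above the median abundance over all libraries were taken. In every row the red 500 nM points lie outside the DMSO points, which the rule for naming the peaks required. The rows run from ADM2 (78.8 and 82.6 against 38.6 and 39.2) to CHLSN (72.3 and 66.8 against 185 and 182), and the 150 nM points lie near the DMSO points.

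Larger log2 differences occurred among peaks that the abundance limit leaves out, and these were picked after their values were seen. The limit uses the average over all libraries, so a peak that fell at 500 nM can miss it without being weak in DMSO. An H3K4me3 peak inside SENP5, a protease of the SUMO pathway, rose from 0.572 and 0.589 CPM in DMSO to 6.21 and 5.51 CPM at 500 nM (log2 difference 3.32, edgeR, adjusted p = 1.33e-12). One inside SLCO4A1, an organic anion transporter, rose from 0.163 and 0.0982 CPM to 2.55 and 1.53 CPM, with a log2 difference of 3.85 that rests on few counts. Its H3K27ac peak had 3.22 and 3.41 CPM in DMSO and 8.10 and 10.4 CPM at 500 nM (log2 difference 1.47, edgeR, adjusted p = 0.00511), a call held under 10 of 13 alternative settings. At TCEA2, a transcription elongation factor, H3K4me3 fell from 30.7 and 29.1 CPM in DMSO to 6.63 and 4.60 CPM at 500 nM (log2 difference -2.39, edgeR, adjusted p = 4.25e-22). Its DMSO level was above the 26.0 and 26.3 CPM of the named NXN peak.

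The fall at CHLSN extended over much of the gene, which spans chr7:977964-1138257 in GRCh38.p14, and was described after these values were seen. Of 9 tested H3K4me3 peaks over the gene, 7 were lower at 500 nM and 0 higher, with log2 differences from -3.30 to 0.16. The peak at chr7:1000266-1002943 fell from 19.5 and 18 CPM in DMSO to 1.70 and 2.14 CPM at 500 nM, and the peak at chr7:994539-998313 from 33.2 and 28.5 CPM to 5.10 and 4.39 CPM. The peak over the start of the antisense gene CHLSN-AS1 fell from 29.8 and 25.9 CPM to 4.08 and 2.55 CPM. By contrast, the peak over the rightmost listed starts of CHLSN had 63.7 and 66.4 CPM in DMSO and 52.9 and 55.6 CPM at 500 nM (log2 difference -0.26). GPER1, a membrane receptor for estrogen inside the gene, had 3.92 and 4.32 CPM in DMSO and 4.93 and 4.19 CPM at 500 nM, and did not pass the test.

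Over all 9 peaks, H3K4me3 at CHLSN summed to 379 and 366 CPM in DMSO, 424 and 384 CPM at 150 nM, and 162 and 156 CPM at 500 nM. H3K27ac over its 19 tested peaks summed to 372 and 419 CPM in DMSO, 290 and 362 CPM at 150 nM, and 265 and 267 CPM at 500 nM. Of these 19 peaks, 3 were lower and 0 higher at 500 nM. They lie among the H3K4me3 peaks of strongest fall: at chr7:999088-1002742, H3K27ac had 106 and 110 CPM in DMSO, 72.9 and 94.2 CPM at 150 nM, and 62.5 and 57.7 CPM at 500 nM (log2 difference -0.84, edgeR, adjusted p = 1.96e-06). In this segment H3K4me3 differed by -3.30 on the same scale. At chr7:994409-998851, H3K27ac differed by -0.76 (adjusted p = 2.51e-05) and H3K4me3 by -2.70.

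**Figure D4:**
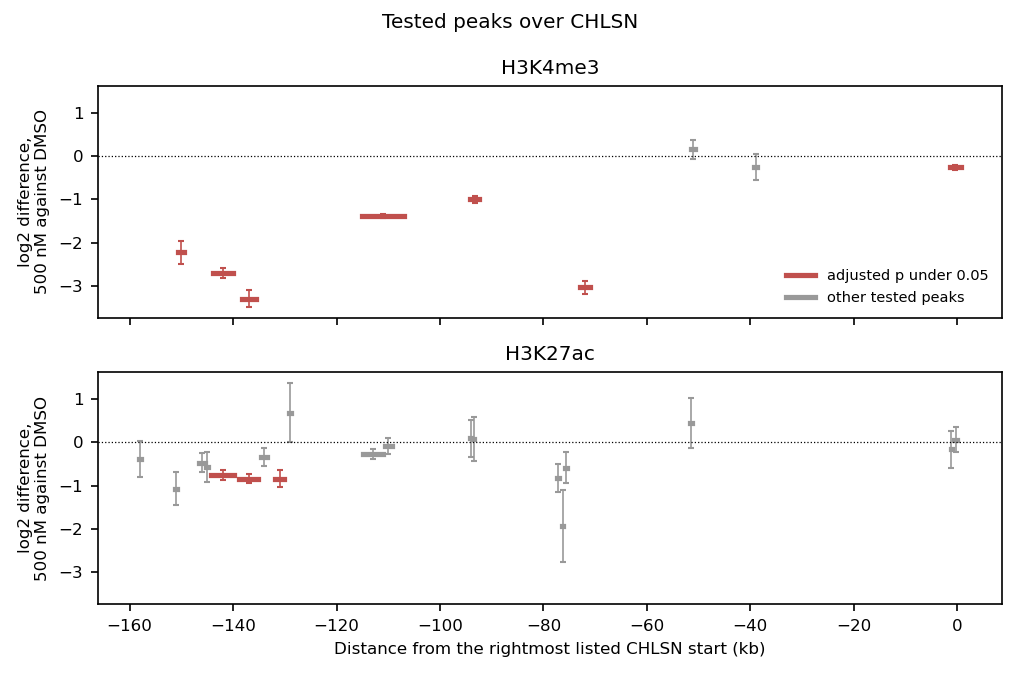
Tested peaks over CHLSN, with distance from its rightmost listed start on the x axis (kb) and the log2 difference of 500 nM against DMSO on the y axis; horizontal bars give peak width, vertical bars the SE, and red marks an adjusted p under 0.05. The H3K4me3 falls reach -3.30, and the 3 red H3K27ac peaks lie between -0.84 and -0.76.

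Of the 12 named H3K27ac peaks, the 2 in CHLSN just given were called under every alternative setting, and 4 of the 12 by DESeq2. The largest rise was over the start of LOC124903058 on the long arm of chromosome 12. It had 7.13 and 5.01 CPM in DMSO, 4.67 and 3.96 CPM at 150 nM, and 13.6 and 19.2 CPM at 500 nM (log2 difference 1.44, edgeR, adjusted p = 0.000238), and its H3K4me3 peak rose by 2.71. A peak inside DUSP22, a phosphatase gene rearranged in some lymphomas, had 3.68 and 4.81 CPM in DMSO, 3.19 and 5.09 CPM at 150 nM, and 9.04 and 13.1 CPM at 500 nM (log2 difference 1.36, edgeR, adjusted p = 0.00534). The remaining rises were in LOC105374336 (0.96), ROCK1P1 (0.91), LINC01342 (0.86) and MPG, a DNA repair glycosylase (0.80). The remaining falls were in ABR (-1.15), another segment of CHLSN (-0.84), KIFC2 (-0.80) and near INTS1 (-0.63). Leaving out 1 library ended the call of each of the 10 peaks other than those 2 in CHLSN, with a largest adjusted p of 0.53.

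Against 150 nM, the largest H3K27ac rises were at LOC124903058 (1.92), inside PITPNA, a phosphatidylinositol transfer protein (1.52), and inside DUSP22 (1.40). PITPNA had 15.6 and 13 CPM in DMSO, 8.07 and 8.67 CPM at 150 nM, and 24.5 and 23.9 CPM at 500 nM. Both 150 nM libraries were the lowest and both 500 nM libraries the highest. The largest falls were near TRV-AAC1-4, a valine tRNA gene (-0.93), in LOC101929432 (-0.62) and in BOP1, a ribosome assembly factor (-0.57). DESeq2 called none of these falls (adjusted p = 0.648, 0.601 and 0.317), and without 500 nM replicate 1 or 2 no H3K27ac end peak was called lower than at 150 nM. The H3K4me3 peaks named for this comparison were ADM2 (1.17), IGHM (0.70) and PYCR1 (0.67) as rises, and CHLSN (-1.53), the peak near LOC124902607 (-1.42) and MIR210HG (-1.28) as falls.

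Where both marks overlapped, the median H3K27ac difference was larger where H3K4me3 was called higher than where it was called lower. Of 1129 overlapping pairs near the ends, the median H3K27ac log2 difference was 0.196 over the 171 pairs with H3K4me3 called higher and 0.0141 over the 277 pairs with it called lower. Elsewhere the values were 0.118 and -0.00921, a difference from the ends that was not tested. Single calls were few: among the 171 pairs 3 H3K27ac peaks were higher and 0 lower, and among the 277 pairs 0 were higher and 7 lower. Elsewhere 51 were higher and 1 lower among 1825 pairs with H3K4me3 higher, and 9 higher and 32 lower among 3289 with it lower.

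H3K4me3 varied between single chromosome ends. Among the 33 ends with at least 10 tested peaks, 16 medians lay above and 17 below matched other peaks, from -0.230 at 7p to 0.157 at 20p. At 7p, which holds CHLSN, 17 of 31 peaks were lower and 6 higher, and at 5q 17 of 51 were lower and 4 higher. The long arm of chromosome 19, which holds a cluster of zinc finger genes, had 17 lower and 2 higher of 56 peaks. In the other direction, 20p had 13 higher and 3 lower of 28 peaks, 16q 26 higher and 9 lower of 65, and 3q 18 higher and 4 lower of 50. Over all tested H3K4me3 peaks the shares were 20.7% higher and 18.7% lower. These ends were picked for their counts, so they are given as a description.

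H3K27ac medians lay above those of matched other peaks at most ends. Among the 36 ends with at least 10 tested peaks, the median lay above matched other peaks at 30 and below at 6, from -0.319 at 4q (25 peaks) to 0.263 at 5p (68 peaks). The DMSO and 500 nM libraries did not overlap at 23 of the 36 ends, 22 of them above and 1 below. All ends were read in the same libraries, so they are not independent. At 5p the relative levels were -0.118 and -0.0807 for the DMSO libraries, -0.188 and 0.0977 for those of 150 nM, and 0.107 and 0.178 for those of 500 nM. DMSO and 500 nM did not overlap at 5p, while the 150 nM libraries spanned nearly the whole range. Of the 10 H3K27ac end peaks called lower, 5 lay at 7p.

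**Figure D5:**
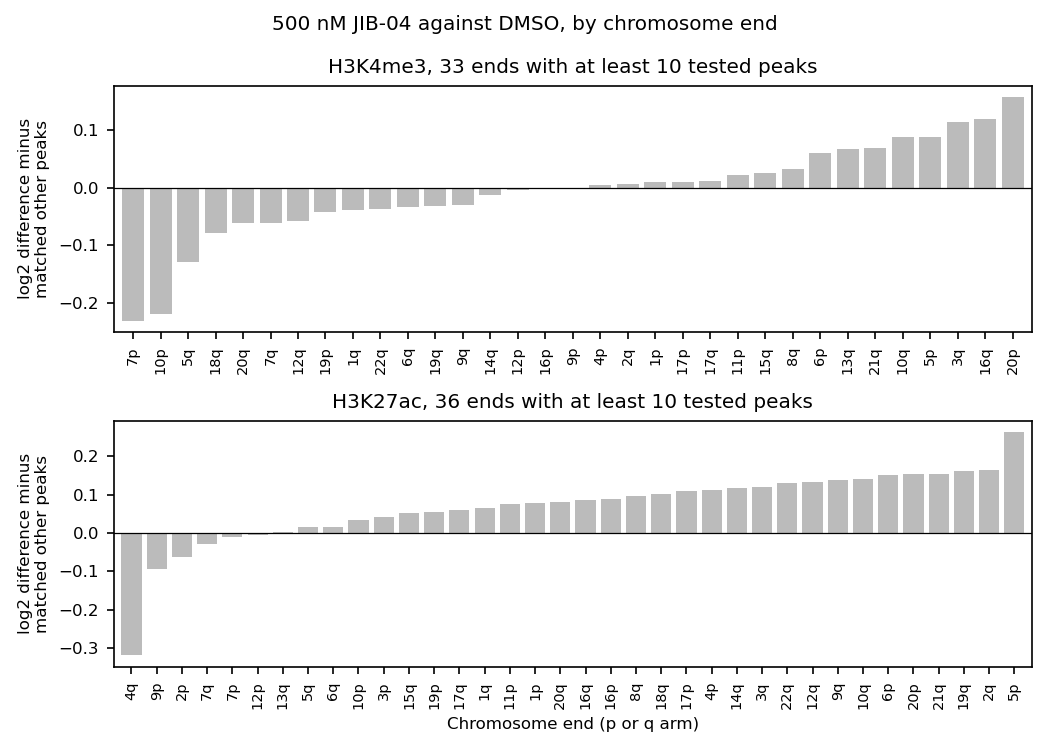
Median log2 difference of 500 nM against DMSO minus that of matched other peaks (y axis) for each chromosome end (x axis) with at least 10 tested peaks. The H3K4me3 bars run from -0.230 at 7p to 0.157 at 20p around 0, and 30 of 36 H3K27ac bars lie above 0.

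By the distances of the rule, the H3K4me3 peak nearest each of the 39 chromosome ends lay a median of 10.5 kb from it. On the q side this distance starts at the last peak of the chromosome in either mark and not at the telomere. Of the 37 nearest peaks that were tested, 9 were higher and 4 lower at 500 nM, from -0.68 to 2.48 on the log2 scale (median -0.01). Among all tested H3K4me3 peaks, 20.7% were higher and 18.7% lower. The 5 nearest by the rule were each the last peak of a q arm, so their distance is only their own length. The last annotated gene lay from 10.9 kb (chromosome 20) to 258.1 kb (chromosome 7) beyond them. These 5 peaks lay at FAM157C, TUBBP5, near IQSEC3P3, LOC124901795 and WASH3P. Several of these belong to families with near-identical copies, so their counts are uncertain. The peak near IQSEC3P3 had 2.29 and 2.16 CPM in DMSO, 3.31 and 2.33 CPM at 150 nM, and 8.08 and 7.76 CPM at 500 nM (log2 difference 1.83, edgeR, adjusted p = 1.02e-09). TUBBP5 was higher by 0.64 and LOC124901795 lower, at -0.68, while FAM157C (0.22) and WASH3P (-0.03) did not pass the test. TUBBP5 was not called by DESeq2 (adjusted p = 0.129) or by edgeR with loess offsets (adjusted p = 0.0713).

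Groups of genes that lie near the ends were read at the peak over each gene's start, or over the gene where no start is listed. Over gene starts near the ends, 16.4% of tested H3K4me3 peaks were higher and 25.0% lower at 500 nM (median -0.0408). Over gene starts elsewhere the shares were 17.7% and 21.7% (median -0.031), and among all tested peaks 20.7% and 18.7%. Of the 143 H3K4me3 peaks of the 6 lists, edgeR called 49 and DESeq2 14. For comparison, edgeR called 41.5% of all tested H3K4me3 end peaks and 39.4% of all tested H3K4me3 peaks. TERT, the catalytic subunit of telomerase, and RTEL1, a helicase of telomere maintenance, were not called. TERT had 82.4 and 83.2 CPM of H3K4me3 in DMSO, 85.9 and 88.4 CPM at 150 nM, and 84.2 and 79.9 CPM at 500 nM. RTEL1 had 90.4 and 88.9 CPM in DMSO, 87.7 and 97.9 CPM at 150 nM, and 88.8 and 87.3 CPM at 500 nM, so the groups of DMSO and 500 nM lay close together. The log2 differences were -0.01 and -0.03, and 0.23 and 0.26 in H3K27ac. None of these passed the test.

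Of 18 chromatin regulators, 2 were higher in H3K4me3 (11.1%; PRDM7 and ZMYND11) and 4 lower (22.2%; CBFA2T3, PHF10, SMYD4 and SUN1), with a median log2 difference of -0.0425, beside -0.00633 for all tested H3K4me3 peaks. DESeq2 called ZMYND11 alone, and loess offsets gave 3 higher and 2 lower. CBFA2T3, a corepressor, had 109 and 102 CPM in DMSO, 109 and 112 CPM at 150 nM, and 90.7 and 94.5 CPM at 500 nM. SMYD4, a protein of a methyltransferase family, had 111 and 108 CPM in DMSO, 104 and 102 CPM at 150 nM, and 97.6 and 95.0 CPM at 500 nM. ANKRD11, the first of the list by name, had a log2 difference of 0.01. KDM5A, an H3K4 demethylase of the Jumonji family, had 161 and 158 CPM in DMSO, 162 and 158 CPM at 150 nM, and 149 and 153 CPM at 500 nM, and did not pass the test (edgeR, adjusted p = 0.0633).

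Of 22 B-cell, immune and lymphoma genes with a tested H3K4me3 peak, 6 were higher and 6 lower (27.3% each, median -0.0182). DESeq2 called 4 higher and 3 lower. NFATC1 and IGHM, given above, had the smallest p-values. FGFR3, a growth factor receptor, had 5.31 and 6.78 CPM in DMSO, 7.26 and 9.59 CPM at 150 nM, and 15.9 and 14.3 CPM at 500 nM (log2 difference 1.34, edgeR, adjusted p = 1.12e-10). DOCK8, IRF4, ITGB2 and NOTCH1 were also higher, and CDK11B, HRAS, LIME1, STK11 and TCF3 lower. CDK11A, the first by name, had a log2 difference of -0.01.

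Of 67 zinc finger genes (66 peaks), many of which encode DNA-binding repressors, 15 were lower (22.4%) and 5 higher (7.46%) in H3K4me3, with a median of -0.0663. With loess offsets 7 were lower and 6 higher, and DESeq2 called 2 lower and 1 higher. ZNF276 shares its peak with VPS9D1, which had 130 and 133 CPM in DMSO, 129 and 133 CPM at 150 nM, and 153 and 161 CPM at 500 nM. ZNF692 had 79.0 and 74.9 CPM in DMSO, 77.1 and 72.2 CPM at 150 nM, and 63.8 and 63.0 CPM at 500 nM. ZNF586 had 57.9 and 64.0 CPM in DMSO, 58.5 and 56.3 CPM at 150 nM, and 50.1 and 51.1 CPM at 500 nM. Of these, ZNF276 was higher at 500 nM in both libraries (log2 difference 0.25), and ZNF692 and ZNF586 lower (-0.28 and -0.26). In ZNF10 the log2 difference was -0.07.

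Of 31 genes of metabolism, translation and replication, 9 were lower (29.0%) and 2 higher (6.45%) in H3K4me3 (median -0.0768). With loess offsets 4 were lower and 7 higher, so the balance of the list turned, and DESeq2 called 3 lower and 0 higher. BNIP3, given above, had the largest fall of the list. FASN, the fatty acid synthase, had 196 and 198 CPM in DMSO, 205 and 211 CPM at 150 nM, and 160 and 173 CPM at 500 nM (log2 difference -0.25, edgeR, adjusted p = 3.67e-08). RPA1, a subunit of the single-stranded DNA binding complex, shares its peak with SMYD4. The higher genes were CDT1, a replication licensing factor, and RPL13, a ribosomal protein, each at 0.09, and DESeq2 called neither.

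Of 93 genes in multi-copy subtelomeric families, 7 had a tested H3K4me3 peak. DUX4L4, a copy of the DUX4 family on 4q, had 0.163 and 0.295 CPM in DMSO, 0.269 and 0.0 CPM at 150 nM, and 1.53 and 1.02 CPM at 500 nM (log2 difference 2.48, edgeR, adjusted p = 0.000815). DESeq2 did not call it (adjusted p = 0.0935). These are few counts, from a repeat whose copies cannot be told apart by the counting. In H3K27ac, edgeR and DESeq2 each called 0 of the 122 peaks of the 6 lists, where edgeR called only 0.923% of all tested peaks. An unadjusted p under 0.05 (edgeR) was reached by 20 of the 122, beside 14.5% of tested end peaks and 11.5% of all tested. The median H3K27ac log2 differences of the lists ran from 0.12 to 0.299, beside 0.129 for tested end peaks over gene starts and -0.00399 for all tested peaks.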

How the data were processed

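The counts analysed were those of the 6 H3K4me3 and 6 H3K27ac ChIP-seq libraries, 2 per treatment; the 6 libraries each of H3K9me2, H3K9me3 and input were not analysed here. The authors deposited 1 table of raw counts per consensus peak for each mark, made with featureCounts 2.0.1 per the file headers, without strand, with a read allowed to count in several peaks and an overlap fraction of 0.2. Their command line sets paired-end counting, whereas the labels describe 50 bp single-end sequencing, and which of these a count stands for (read or fragment) is not settled. The submitters' processing notes name GRCh38, Trim Galore 0.6.7, BWA 0.7.17-r1188, Picard 2.27.4, MACS2 2.2.7.1, deepTools 3.5.1 and edgeR 3.42.4, with no role given. How the consensus peaks were made is not given in the sources used here. Starts are printed with 1 added. The per-sample columns left unused numbered 0.

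Groups came from the sample titles. All 6 libraries of a mark entered 1 fit in edgeR 4.0.16 (R 4.3.3), with filterByExpr, TMM normalization, glmQLFit and glmQLFTest, and Benjamini-Hochberg adjustment over all tested peaks at 0.05. CPM cannot show a shift shared by every peak. The fit was tested on simulated data in which 200 peaks had been changed. Genes and promoters came from RefSeq tables of GRCh38.p14. Shares and medians of peaks by place (over a gene start, inside or outside genes) leave out chromosome 8, whose promoters appear to be missing from the list. A peak takes the gene whose start it covers, else the gene it overlaps, else the nearest.

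Peaks were named as the 10 largest rises and 10 largest falls of H3K4me3, and the 6 and 6 of H3K27ac, at 500 nM against DMSO. Each had to be called, to exceed the median of the mark in average abundance over all libraries, and to have both 500 nM libraries beyond both DMSO libraries. That average includes the 500 nM libraries, so a rise can pass through them and a fall can be left out through them. The H3K27ac peak in DUSP22 had a mean of 4.25 CPM in DMSO. The median DMSO level of tested H3K27ac peaks was 7.73 CPM near the ends and 6.13 CPM elsewhere. The 3 and 3 per mark against 150 nM, the 3 strongest per mark, the 5 nearest an end, and in each gene list the first by name and those of smallest p were also named. The regions, lists and rules were chosen with earlier results of these data known. Alternatives were another normalization, count filter, test (DESeq2 1.42.0), matching, width of the end regions, a replicate block, a term for the kind of library, and each library left out. The settings restricted to gene starts were added after seeing the data. The value of 1 marker gene is not reported here.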

Additional observations from a re-analysis of the deposited data

How the results depend on the processing

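The H3K4me3 end peaks called at 500 nM numbered 261 (against DMSO) and 269 (against 150 nM) with DESeq2, 328 and 327 with end regions of 1 Mb, and 1150 and 1158 with 5 Mb; without single libraries they ran from 477 to 603 and from 440 to 639. The H3K27ac counts, 31 and 38, became 18 and 17 among peaks averaging 50 or more counts, 136 and 24 with the 4 libraries of the comparison alone, 5 and 7 with DESeq2, 96 and 58 with a term for the kind of library, 15 and 22 with 1 Mb, and 54 and 67 with 5 Mb. Without single libraries they ran from 4 to 132 and from 12 to 97. Against DMSO the count was 9 without DMSO replicate 1, 4 without DMSO replicate 2, 132 and 124 without 150 nM replicate 1 or 2, and 12 and 4 without 500 nM replicate 1 or 2. Against 150 nM it was 97 without 150 nM replicate 1, and 22 and 12 without 500 nM replicate 1 or 2. The cause was not tested. At 150 nM against DMSO, counts without single libraries ran from 0 to 1 for H3K4me3 and from 0 to 18 for H3K27ac.

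The replicate numbers are not known to mark a shared culture or day. The correlation of the replicate differences was 0.132, 0.304 and 0.119 between pairs of H3K4me3 groups and 0.215, 0.0487 and 0.151 between pairs of H3K27ac groups. With a replicate block, 81 H3K27ac end peaks were called at 500 nM against DMSO and 71 against 150 nM, and the H3K4me3 counts stayed within 1.5 times.

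The end-minus-other difference of H3K4me3 at 500 nM against DMSO, -0.0127, was 0.00594 with no filter on low counts and ran from -0.0199 to 0.0104 without single libraries. Against 150 nM, -0.0248, it was -0.00623 with no filter, -0.00964 with 20 bins, -0.00407 with no matching, -0.0409 with 1 Mb and -0.0419 over gene starts with promoter GC matched, and ran from -0.0247 to -0.00504 without single libraries; at 150 nM against DMSO the range was -0.0168 to 0.0140. For H3K27ac at 500 nM against DMSO, 0.103, it was 0.0576 among peaks averaging 50 or more counts, 0.0625 over gene starts and 0.0647 with promoter GC matched, and 0.0807 to 0.132 without single libraries. It was positive under all 15 alternatives, which ran from 0.0576 to 0.126. At 150 nM against DMSO the range without single libraries was -0.0573 to 0.104, and at 500 nM against 150 nM it was -0.00343 to 0.171. The H3K27ac libraries hold 4360660 to 5410292 counts over 54037 tested peaks; the part of depth in the number of calls was not tested.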
